A study of Mus musculus with 79 samples.

Results

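The transcripts of the mitochondrial genome were followed across 4 kinds of cortical neuron in stressed and unstressed mice. They were chosen by name, as every gene of the deposited table whose symbol starts with mt-. The rule uses no measured value, but the set was proposed with earlier results of these data known. Of the 38879 genes in the table, 18 met the rule: all 13 protein genes of the mitochondrial genome, both ribosomal RNAs (mt-Rnr1, the 12S RNA of the small subunit, and mt-Rnr2, the 16S RNA of the large subunit) and 3 of the 22 transfer RNAs (mt-Tn for asparagine, mt-Tc for cysteine and mt-Tp for proline). The other 19 of the 37 genes in the GENCODE M21 annotation, transfer RNA genes without exception, were not analysed here.

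The mitochondrial genome is a small circle of DNA present in many copies per cell. It is read as long transcripts from each strand, and the transfer RNAs that lie between most other genes are cut out to release the ribosomal and messenger RNAs. Its proteins are core subunits of respiratory complexes I, III and IV and of the ATP synthase. Fast-spiking parvalbumin interneurons are known for a high density of mitochondria, in keeping with the energy that their firing takes.

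The neurons were pyramidal cells (PYR), the excitatory output cells of the cortex, and 3 kinds of inhibitory interneuron, named for the marker they make: PV for parvalbumin, SST for somatostatin and VIP for vasoactive intestinal peptide. Each library held 130 neurons of 1 type, marked with RNAscope probes in 12 µm sections of the medial prefrontal cortex and cut out by laser. The mice were male, C57Bl/6J by the protocol and C57Bl/6 by the strain label. In the stressed arm (UCMS) mice lived alone and met varied mild stressors daily for 5 weeks, among them restraint, wet bedding and predator odor, whereas controls shared cages with littermates, so stress and single housing cannot be told apart. Both arms had 10 mice, each giving 1 library per type, except that the UCMS PV group had 9 libraries. Ages were not given in the sources used here.

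Libraries held 3642579 to 13529571 reads (median 10175343). The median was 11515045 reads in control PYR, 8558924 in control PV, 8856504 in control SST and 7767370 in control VIP libraries. The parvalbumin, somatostatin and VIP markers averaged highest in the libraries of their own type, as did 4 of the 5 pyramidal markers; the exception was Camk2a, at 10372 ± 1507 in control PYR and 12009 ± 1967 in control VIP libraries. Pvalb stood at 815.8 ± 422 normalized counts in control PV and at 37.9 or less on average in the other control groups, Sst at 12981 ± 3745 in control SST and Vip at 5104 ± 1333 in control VIP libraries (SD, n = 10 each). Markers of other cells were also read in every group, with all 5 pyramidal and all 6 astrocyte markers detected in each. The summed level of 5 pyramidal markers averaged 34893 in control PYR, 22620 in control VIP, 12919 in control SST and 10859 in control PV libraries. In such pooled captures, fewer cells of a type and less RNA per cell cannot be told apart.

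The 3 transfer RNA genes that were listed lie on the minus strand of the mitochondrial chromosome (GRCm38 coordinates, GENCODE M21 sequences, 5′ to 3′). They are shown because each is shorter than 75 bases, and the part of length in their read counts was not tested. mt-Tn spans chrM:5089-5159, mt-Tc spans chrM:5192-5257 and mt-Tp spans chrM:15356-15422.
mt-Tn: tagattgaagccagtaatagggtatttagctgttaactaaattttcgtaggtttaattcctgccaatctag
mt-Tc: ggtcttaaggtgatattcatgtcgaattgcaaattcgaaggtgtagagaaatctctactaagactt
mt-Tp: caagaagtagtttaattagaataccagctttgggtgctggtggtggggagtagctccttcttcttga

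Neighbouring protein genes share bases, which limits how their reads can be separated. mt-Atp8 (chrM:7766-7969) and mt-Atp6 (chrM:7927-8607), both subunits of the ATP synthase, overlap by 43 bases on the plus strand. mt-Nd4l (chrM:9877-10173) and mt-Nd4 (chrM:10167-11544), both of complex I, overlap by 7. In the stretches below, capitals mark the start codon of the downstream gene inside the end of the upstream one.
mt-Atp8/mt-Atp6: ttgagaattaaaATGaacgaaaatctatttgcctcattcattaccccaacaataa
mt-Nd4l/mt-Nd4: caacctactacaATGctaa

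The ends of the protein genes also differ. Capitals mark the last codon, or the bases left after the last full codon. mt-Co3, mt-Nd4 and mt-Cytb end in a lone T, which the added poly(A) tail is known to complete to a stop codon, whereas mt-Co1 ends in a full one. mt-Nd5 (plus strand) and mt-Nd6 (minus strand, the only protein gene there) share the bases from 13552 to 13565 at their ends, and whether the authors' counting used the strand is not given in the sources used here.
mt-Co3: tccatttattgatgaggatctT
mt-Nd4: ctaattacaggcctgacaataT
mt-Cytb: aaaatactaaaattatatccaT
mt-Co1: acctatgtaaaagtaaaaTAA
mt-Nd5: tactcaattaatctcgagTAA
mt-Nd6: atcgagattactcgagatTAA

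Summed by class, ribosomal RNA took by far the most reads. The 2 ribosomal RNAs held 5.47% to 11.7% of a library's reads (median 7.77%), the 13 protein genes 0.608% to 1.69% (median 0.953%) and the listed transfer RNAs at most 0.00363%. The values are shares of all recovered reads and are given as a description, without a test. How the library kit treats ribosomal RNA is not given in the sources used here, so the ratio between classes describes these libraries rather than the cells.

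PV libraries held the most protein-gene RNA and PYR libraries the least. In control mice the share averaged 0.825% ± 0.107 for PYR, 1.22% ± 0.179 for PV, 0.940% ± 0.1696 for SST and 1.02% ± 0.258 for VIP libraries (SD, n = 10 each). In UCMS mice it averaged 0.825% ± 0.117, 1.39% ± 0.233, 0.905% ± 0.148 and 1.07% ± 0.144 in the same order (n = 9 for PV). Within a mouse the share was higher in PV than in PYR libraries in 19 of 19 mice, higher in PV than in SST in 19 of 19, and higher in PV than in VIP in 17 of 19. In normalized counts the summed protein genes ran from 65151 to 94538 in control PYR and from 98797 to 138102 in control PV libraries, and the ranges did not overlap in UCMS mice either (58965 to 93251 against 96448 to 163476).

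PV libraries also stood highest when protein-gene reads were set against ribosomal RNA of the same library, a ratio that dividing a library by 1 factor leaves as it is. Control PV libraries held 15.5 ± 1.32 protein-gene reads per 100 ribosomal RNA reads, where PYR libraries held 11.8 ± 1.28, SST libraries 12.9 ± 1.03 and VIP libraries 12.5 ± 1.71 (SD, n = 10 each). In UCMS mice the mean was 14.8 for PV, 11.8 for PYR, 11.7 for SST and 12.5 for VIP libraries. The ratio was higher in PV than in PYR in 19 of 19 mice, than in SST in 17 and than in VIP in 18. The share of reads on ribosomal RNA itself was less ordered: it averaged 7.05% for PYR, 7.92% for PV, 7.30% for SST and 8.13% for VIP libraries of controls, and PV exceeded VIP in 9 of 19 mice.

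**Figure D1:**
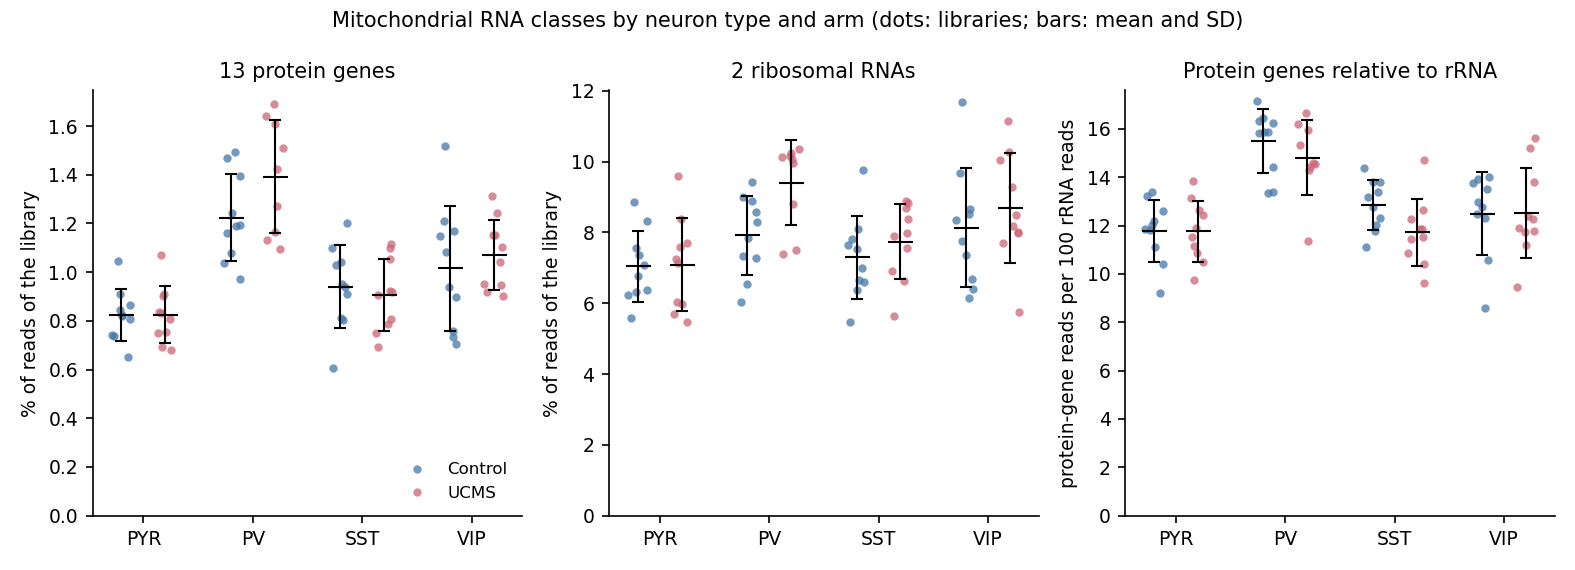
Share of reads on the 13 mitochondrial protein genes (left, percent of a library's reads), on the 2 ribosomal RNAs (middle, percent) and protein-gene reads per 100 ribosomal RNA reads (right), by neuron type. Dots are libraries of control (blue) and UCMS (red) mice, and bars are means with SD; PV libraries stand highest on the left and right, with control means of 1.22% and 15.5.

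Per kilobase of gene, mt-Rnr2 averaged 296391 and mt-Rnr1 256217 normalized counts over all libraries. The highest protein gene, mt-Co1, the catalytic subunit of complex IV, followed at 18752 and mt-Atp6, the proton-channel subunit of the ATP synthase, at 14996. Then came mt-Cytb at 8581, mt-Co2 at 8074, mt-Nd1 at 7828 and mt-Co3 at 7596, which changed places with each other between types. The 4 genes at the top held the same ranks in the control means of all 4 types. At the lower end stood mt-Nd2 at 2700, mt-Nd3 at 1836 and the transfer RNA mt-Tp at 1189 per kilobase. mt-Nd6, alone among the protein genes on the minus strand, stood at 4069, near mt-Nd4 at 4494.

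By respiratory complex, no type stood clear of the others in the make-up of its protein-gene RNA. Complex IV genes (mt-Co1, mt-Co2 and mt-Co3) held 37.6% to 48.9% of the protein-gene reads of a library, complex I genes (7 of the 13) 28.7% to 39.8%, the ATP synthase genes 6.58% to 16.8% and mt-Cytb, the single mitochondrial subunit of complex III, 8.05% to 15.01%. In control mice the mean share of complex I was 33.7% ± 1.05 for PYR, 33.8% ± 1.33 for PV, 33.4% ± 3.25 for SST and 34.1% ± 1.94 for VIP libraries (SD, n = 10 each). The 3 shortest protein genes varied most between libraries of a group. The mean within-group coefficient of variation was 14.8% for mt-Nd5, the longest at 1824 bases, and 15.98% for mt-Cytb, against 31.3% for mt-Nd4l (297 bases), 33.5% for mt-Atp8 (204 bases) and 46.4% for mt-Nd3 (348 bases).

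Gene by gene, the comparison of types asked which transcripts differ between neurons of the same mice. Tests were made with limma on log2(normalized count + 4), with the mouse as a block and Benjamini-Hochberg adjustment over all genes tested, and a gene passed at an adjusted p below 0.05. In control mice 11 of the 16 members tested (mt-Tn and mt-Tc were too low) differed between PYR and PV neurons, every one a protein gene that was higher in PV; of all genes 3.74% were called lower in PYR. The 13 protein genes had a median log2 difference of 0.55 in favour of PV, where the median over all genes tested was -0.07. The 2 that did not pass were mt-Atp8 (0.49, adjusted p = 0.435) and mt-Nd3 (0.45, adjusted p = 0.644). The 11 that passed were 1.38-fold to 1.59-fold higher in PV. Without mouse U8 the count was 7.

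Complex I, the entry point of electrons from NADH, was represented by 6 of its 7 genes. mt-Nd5, a proton-pumping subunit, ranged from 7744 to 9640 normalized counts in control PYR (median 8529) and from 10602 to 15002 in control PV libraries (median 11843). The ranges did not touch, and the difference was 0.49 (SE 0.0873, adjusted p = 1.26e-05, higher in PV in 10 of 10 mice). mt-Nd4 ranged from 3609 to 7194 (median 5520) in PYR and from 5770 to 9961 (median 7846) in PV libraries, a difference of 0.56 (adjusted p = 4.23e-06) that also held in 10 of 10 mice. mt-Nd6, read from the other strand, differed by 0.65 (adjusted p = 0.00596). mt-Nd1, mt-Nd2 and mt-Nd4l passed as well, at 0.63, 0.53 and 0.63.

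mt-Cytb of complex III had the smallest adjusted p of the set. It ranged from 5730 to 11292 (median 7927) in control PYR and from 8761 to 15260 (median 11798) in control PV libraries, a difference of 0.55 (SE 0.0868, adjusted p = 4.38e-07). It was higher in PV in 10 of 10 mice, although the 2 groups overlapped.

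The complex IV genes, which pass electrons to oxygen, all passed. mt-Co1 ranged from 18127 to 30836 (median 24272) in control PYR and from 32021 to 44881 (median 34543) in control PV libraries. These ranges did not overlap, and the difference was 0.52 (SE 0.131, adjusted p = 0.00856). mt-Co2 differed by 0.62 (adjusted p = 0.0201) and mt-Co3 by 0.47 (adjusted p = 0.00122). Of the ATP synthase pair, mt-Atp6 ranged from 6149 to 9614 in control PYR and from 9789 to 14963 in control PV libraries, again without overlap, at a difference of 0.67 (SE 0.167, adjusted p = 0.00887).

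The same comparison in UCMS mice called 14 of 16 members, where 4.71% of all genes were called lower in PYR. The 11 genes called in control mice were called again with the same sign, where 3.13% of genes tested in both arms were lower in PYR in both, and mt-Atp8 and both ribosomal RNAs joined them. The protein genes had a median log2 difference of 0.82, the median over all genes being -0.15. mt-Cytb ranged from 5021 to 8163 (median 7685) in UCMS PYR and from 9476 to 17761 (median 14817) in UCMS PV libraries, a difference of 0.86 (SE 0.0713, adjusted p = 8.52e-23 in limma, higher in PV in 9 of 9 mice). mt-Nd1, mt-Co1, mt-Nd4, mt-Nd5 and mt-Cytb did not overlap between these groups. The share of all genes without overlap between PYR and PV libraries is not given here for either arm, so the ranges are description only. The larger median in UCMS mice is no shown difference between arms: the test of stress by type called 0 members, as given below.

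PV neurons also stood above the other interneurons. Against SST, 7 protein genes were higher in PV in control mice, where 1.81% of all genes were called higher in PV: mt-Nd1 at 0.67 (adjusted p = 0.0264), mt-Nd4 at 0.60 (adjusted p = 2.41e-06), mt-Nd6 at 0.59 (adjusted p = 0.032), mt-Co3 at 0.58 (adjusted p = 6.92e-05), mt-Co1 at 0.48 (adjusted p = 0.0358), mt-Nd5 at 0.38 (adjusted p = 0.00209) and mt-Cytb at 0.31 (adjusted p = 0.0182). In control SST libraries mt-Nd4 ranged from 3674 to 8138 (median 5306), and it was higher in PV in 10 of 10 mice. In UCMS mice 13 members were higher in PV, 11 of them protein genes, where 2.11% of all genes were called higher in PV. The 7 genes called in control mice were among them, and 1.24% of genes were higher in PV than in SST in both arms. The count in control mice fell to 3 without mouse U7 and to 4 without mouse U5 or U8, and to 4 with libraries scaled to nuclear reads.

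Against VIP, 5 protein genes were higher in PV in control mice, where 3.27% of all genes were called higher in PV: mt-Atp6 at 0.55 (adjusted p = 0.0424), mt-Co3 at 0.41 (adjusted p = 0.00758), mt-Nd5 at 0.37 (adjusted p = 0.00175), mt-Nd4 at 0.36 (adjusted p = 0.0112) and mt-Cytb at 0.26 (adjusted p = 0.0463). That count rested on few libraries. It was 0 without the 7 libraries with the fewest reads, 4 of which were control VIP libraries, 1 without the block and 1 with libraries scaled to nuclear reads. Leaving out any of the control mice U1, U4, U6, U7, U8 or U9 left 3, and leaving out U5 left 2. In UCMS mice 12 members were higher in PV than in VIP, where 4.48% of all genes were called higher in PV, and the 5 called in control mice were among them (2.38% of genes were higher in PV in both arms). The count of 12 also depended on scaling. It became 6 under quantile normalization or with libraries scaled to all reads, and 7 with libraries scaled to nuclear reads.

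**Figure D2:**
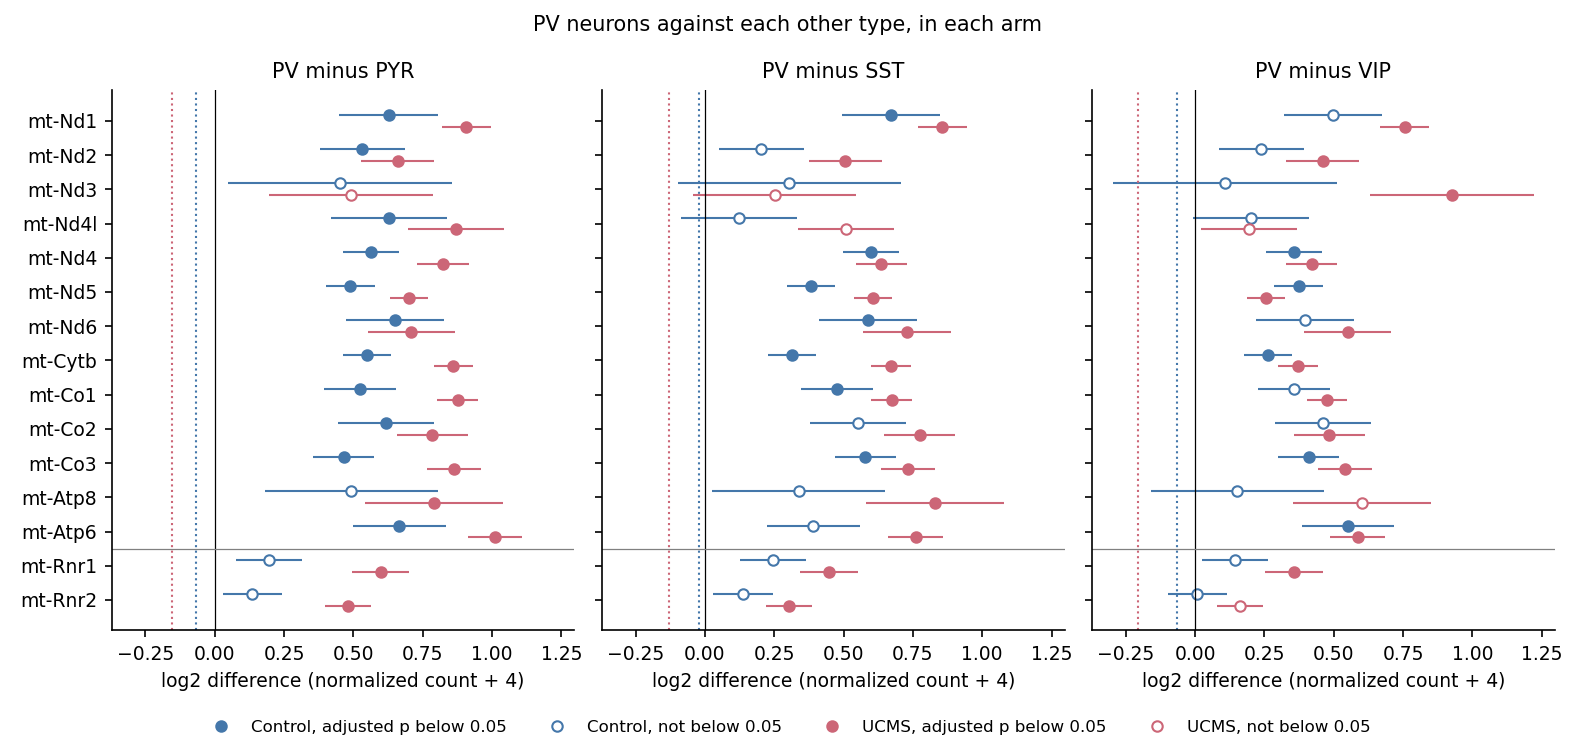
Log2 difference, on normalized count + 4, of PV neurons from PYR (left), SST (middle) and VIP neurons (right) for the 13 protein genes and, under the grey line, the 2 ribosomal RNAs, in control (blue) and UCMS (red) mice. Points are estimates with SE, filled where the adjusted p is below 0.05, and dotted lines are the medians over all genes tested; the protein genes lie between 0.45 and 1.01 on the left.

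The pairs without PV had from 0 to 8 members called. Between PYR and VIP neurons of control mice only mt-Cytb passed, lower in PYR at -0.29 (SE 0.0868, adjusted p = 0.0352), where 2.26% of all genes were called lower in PYR. That call was lost in edgeR (1.58% of all genes called lower in PYR), in DESeq2 (7.66%), without the block and without any of the control mice U1, U2, U3, U7, U8 or U10. In UCMS mice 8 members were lower in PYR than in VIP, where 3.05% of all genes were called lower in PYR and 1.80% in both arms, mt-Cytb again among them at -0.49 (adjusted p = 4.05e-09) and mt-Nd5 at -0.44 (adjusted p = 2.8e-08). Limma called 0 members between PYR and SST, where 4.53% of all genes passed in control and 6.26% in UCMS mice. At an unadjusted p below 0.05 there were 3 of 16 members in control mice, against 2503 of 17498 genes. In UCMS mice there were 6 of 16 members, against 2683 of 17638 genes. Between SST and VIP limma called 0 members in control mice, where 2.93% of all genes passed. At an unadjusted p below 0.05 there was 1 member there, against 2309 of 17498 genes. In UCMS mice limma called 2, mt-Nd5 at -0.35 and mt-Cytb at -0.30 (2.38% of all genes were called lower in SST). For PYR against SST and SST against VIP in control mice, edgeR called 0 members, with 3.45% and 1.55% of all genes, and DESeq2 called 0, with 12.6% and 8.69%. Between PYR and SST neurons of control mice, 1 member passed under 4 alternatives, among them libraries scaled to nuclear reads.

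Other measures moved with the types and their part was not tested. The astrocyte marker sum averaged 6455 in PV, 6525 in SST, 8245 in PYR and 10192 in VIP libraries of controls, the oligodendrocyte sum 1493, 1985, 1777 and 1445, and the microglial sum 288, 432.3, 429.7 and 649.5. Of these sums, none was highest in PV libraries. The summed level of 4 markers shared by inhibitory neurons was highest in control PV libraries, at 23239. It averaged 13504 in control SST, 10769 in control VIP and 752.2 in control PYR libraries. The pyramidal sum given above was lowest in control PV libraries, at 10859. Without the 7 libraries with the fewest reads, the same 11 genes passed between PYR and PV neurons of control mice, whereas edgeR called 8 (2.74% of all genes called lower in PYR) and DESeq2 11 (8.72%).

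The ribosomal RNAs followed a weaker pattern. mt-Rnr2 ranged from 340605 to 519921 (median 452224) in control PYR libraries, from 403077 to 537452 (median 485226) for PV, from 348575 to 647204 (median 419802) for SST and from 363978 to 680788 (median 451804) for VIP. All 4 ranges overlapped, and neither ribosomal RNA passed in any pair of types in control mice. In UCMS mice mt-Rnr1 was higher in PV than in PYR by 0.60 (SE 0.103, adjusted p = 0.00011), than in SST by 0.45 (adjusted p = 0.00639) and than in VIP by 0.36 (adjusted p = 0.0226). mt-Rnr2 was higher in PV than in PYR by 0.48 (adjusted p = 0.000112) and than in SST by 0.30 (adjusted p = 0.026), and lower in PYR than in VIP by 0.32 (adjusted p = 0.014). As the most abundant rows of the table they were sensitive to scaling: under quantile normalization the PV minus VIP difference of mt-Rnr1 in UCMS mice turned to -0.19 and that between PYR and PV went to 0, while no called protein gene changed sign under any scaling.

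The ratio of mt-Rnr2 to mt-Rnr1 within a library ran from 1.47 to 2.28 (median 1.95). Since the kit's treatment of ribosomal RNA is not given in the sources used here, this ratio too describes libraries rather than cells. It was lowest in PV libraries: PV lay below SST in 18 of 19 mice, below VIP in 18 and below PYR in 16. Control means were 1.83 ± 0.186 in PV, 1.90 ± 0.152 in PYR, 1.97 ± 0.146 in SST and 2.00 ± 0.148 in VIP (SD, n = 10 each). The ratio also went with the mouse. Mouse U5 had the lowest value of its type in PYR (1.55), PV (1.47) and VIP libraries (1.67) and the next to lowest in SST (1.76), and mouse U6 stood at 1.77, 1.61, 1.74 and 1.88 in the PYR, PV, SST and VIP libraries. After removing group means, the mouse accounted for a share of 0.639 of the variance of this ratio, 0.422 of the protein-gene share and 0.277 of the ribosomal RNA share. The median over 17427 genes was 0.007. Among members it was 0.382 for mt-Atp6 and 0.379 for mt-Nd2 but 0.029 for mt-Atp8 and -0.000 for mt-Nd3. The libraries of each of the 20 mice also hold consecutive sheet numbers in the labels, so mouse and order of handling cannot be told apart.

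**Figure D3:**
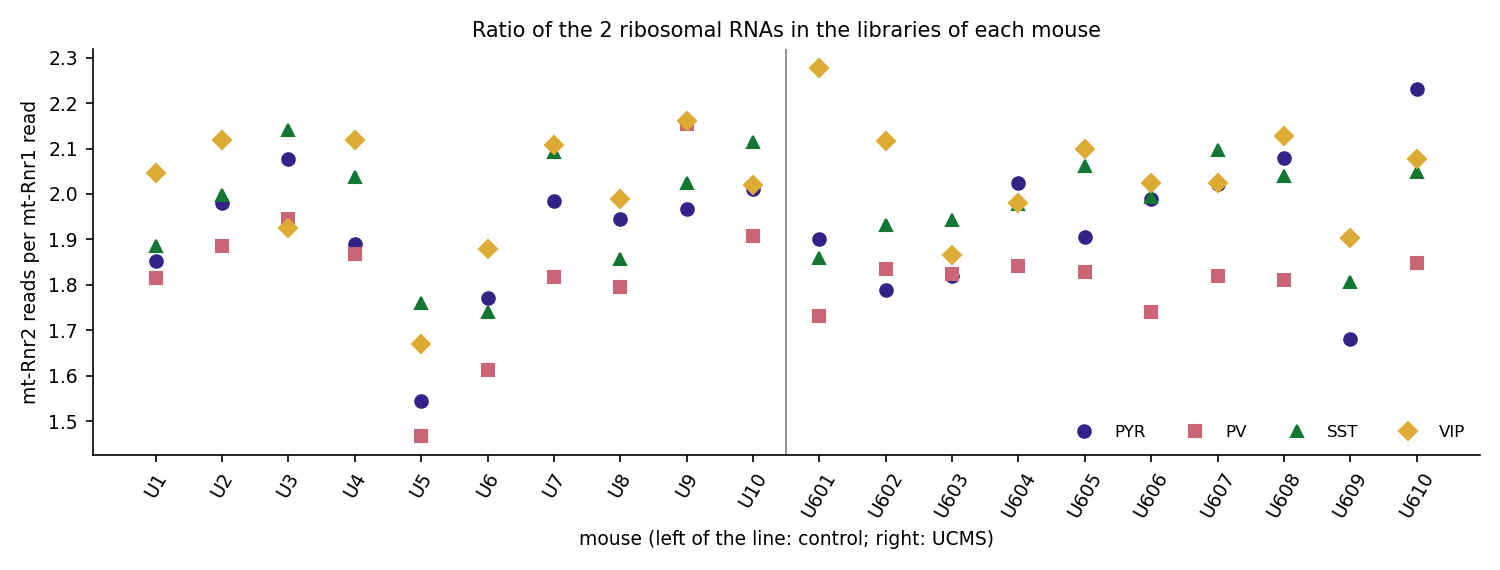
Reads of mt-Rnr2 per read of mt-Rnr1 (vertical axis, not starting at 0) in the PYR, PV, SST and VIP libraries of each mouse, control mice on the left and UCMS mice on the right. Each symbol is 1 library; the symbols of mouse U5, from 1.47 to 1.76, lie below those of nearly every other mouse, and PV squares tend to lie lowest within a mouse.

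Transfer RNA reads were scarce. mt-Tp had reads in 66 of 79 libraries, with a median of 60 and a highest count of 339, whereas mt-Tc had reads in 6 libraries (43 in all) and mt-Tn in 2 (66 in all). A count of 0 in a library allows an expected count of up to 3 reads, for counting error only. mt-Tp ranged from 0 to 297.3 normalized counts in control PYR (median 127.5), from 0 to 162.6 in control PV (median 57.1), from 0 to 280.7 in control SST (median 11.03) and from 0 to 262.5 in control VIP libraries (median 52.8). All groups overlapped, and mt-Tp passed in no comparison. A gene of 67 bases is shorter than many RNA-seq fragments, and reads of longer precursors cannot be told from those of the mature transfer RNA here.

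The comparison of stressed with control mice asked whether these transcripts change with UCMS in each type. No member passed in limma in PYR, PV, SST or VIP neurons, in the average over types or in the test of whether the stress effect differs between types. Of all genes 0.0808% passed in PYR neurons and 0% in the other 5 tests. At an unadjusted p below 0.05 there were 2 members in PYR, 4 in PV, 0 in SST, 1 in VIP, 0 in the average and 2 in the test of the difference between types (mt-Nd5 and mt-Cytb, adjusted p = 1). Of all genes tested, 1023 of 16092 reached that threshold in PYR, 630 of 16847 in PV and 979 of 17108 in SST. In VIP it was 1001 of 19451, in the average 1191 of 17427 and in the test of the difference 816 of 17427. edgeR and DESeq2 on the recovered reads also called 0 members in each of the 4 types, although they called more of the other genes. Of all genes, edgeR called 0.168% in PYR, 0% in PV, 0.00585% in SST and 4.55% in VIP neurons, and DESeq2 called 0.243%, 0.342%, 0.320% and 0.572% in that order. For all 15 protein and ribosomal RNA genes, the ranges of the UCMS and control libraries overlapped in every type.

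The members with the smallest p differed from type to type. In PYR neurons mt-Co3 ranged from 4420 to 7288 (median 5425) in control and from 2979 to 6386 (median 4330) in UCMS libraries, a log2 difference of -0.31 (SE 0.0924, adjusted p = 0.519), with 9 of 10 UCMS libraries under the control median. With the reads of its near-identical nuclear copy added (below), mt-Co3 passed in PYR neurons, the only member to do so. The share of reads listed under such copies was uneven between these arms. It was 3% or more in 3 of 10 control PYR libraries (highest 39.8%) and in 0 of 10 UCMS PYR libraries (highest 1.2%). With copies added, the highest mt-Co3 level was 10842 in control and 6418 in UCMS PYR libraries. In PV neurons mt-Rnr2 ranged from 403077 to 537452 (median 485226) in control and from 431218 to 660460 (median 573354) in UCMS libraries, at 0.22 (SE 0.0770, adjusted p = 0.982). In VIP neurons mt-Nd5 ranged from 6785 to 16989 (median 9730) in control and from 9283 to 12769 (median 10643) in UCMS libraries, at 0.22 (SE 0.0807, adjusted p = 0.932), and without the 7 libraries with the fewest reads the value was -0.02. In SST neurons mt-Cytb ranged from 7009 to 11005 (median 9802) in control and from 6319 to 10346 (median 8596) in UCMS libraries, at -0.15 (SE 0.0786, adjusted p = 0.859).

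As classes the shifts were small. The median log2 difference of the 13 protein genes was -0.08 in PYR, 0.17 in PV, -0.09 in SST and -0.00 in VIP neurons, where the medians over all genes tested were 0.10, 0.05, 0.15 and 0.17. In PYR neurons the sign depended on scaling: with libraries scaled to nuclear reads, which moved the median of all genes from 0.10 to 0.21, the median of the protein genes became 0.05 and mt-Nd1, mt-Co2, mt-Atp6, mt-Nd5, mt-Nd6, mt-Cytb and mt-Rnr2 turned positive. Leaving out 1 library gave a single call in 2 of the 4 types, mt-Co1 in PYR neurons without control mouse U7 and mt-Atp6 in PV neurons without UCMS mouse U601.

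**Figure D4:**
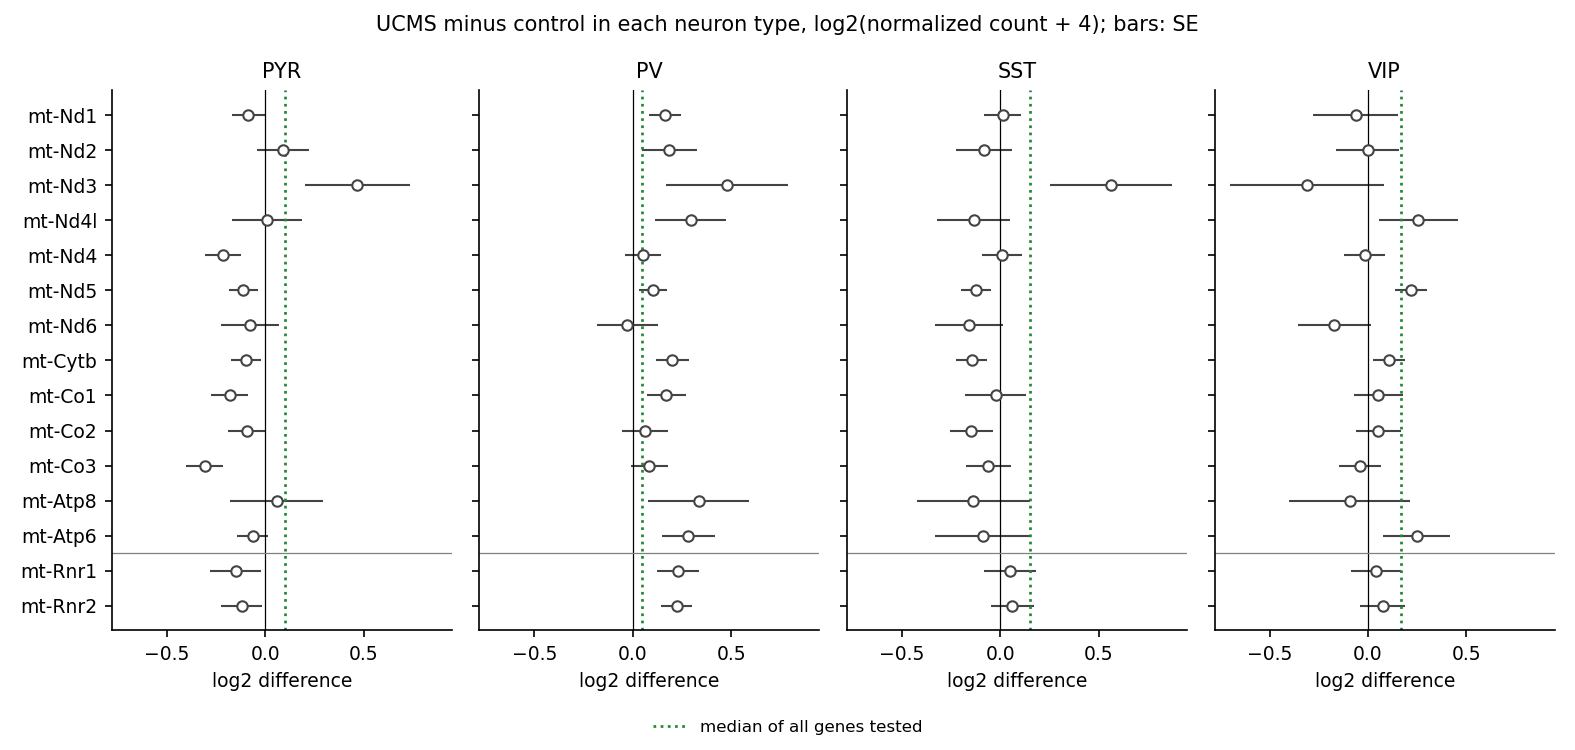
Log2 difference of UCMS from control mice, on normalized count + 4, for the 13 protein genes and, under the grey line, the 2 ribosomal RNAs in each neuron type. Points are estimates with SE, none below an adjusted p of 0.05, and the dotted line is the median over all genes tested; most protein genes lie left of it in PYR neurons, where their median was -0.08, and right of it in PV neurons, where it was 0.17.

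Part of the mitochondrial genome has a near-identical copy in the nuclear genome, with annotated gene models for 7 of the 13 protein genes. On the minus strand of chromosome 1, from 24611535 to 24616197 (GRCm38), 7 unprocessed pseudogenes lie side by side and match mt-Co1, mt-Co2, mt-Atp6, mt-Co3, mt-Nd3, mt-Nd4l and mt-Nd4 at 99.71% to 100% identity over their aligned lengths. The deposited table lists Gm29216, Gm28661, Gm10925, Gm28437, Gm28438, Gm10222 and Gm28439 with reads of their own. The share of reads listed under these copies, out of those under the copies and their mitochondrial partners, ran from 0.0179% to 42.2% (median 0.948%).

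The share differed widely between libraries of the same type and of the same mouse. It was 3% or more in 28 of 79 libraries and 20% or more in 20: 1 of 20 PYR, 6 of 19 PV, 6 of 20 SST and 7 of 20 VIP libraries. In mouse U4 the PYR, SST and VIP libraries stood at 39.8%, 23.6% and 42.2% and the PV library at 0.405%. For 2 sequences this alike, reads cannot be placed with certainty, and the cause of the spread was not tested. Adding the copies' reads raised the mean of mt-Co3 from 5956 to 7488 and that of mt-Atp6 from 10212 to 12964 normalized counts, and it widened the within-group coefficient of variation of mt-Atp6 from 24.4% to 41.4%. Across the 79 libraries, which share mice, the copy share had a Pearson correlation of -0.32 to -0.04 with the listed levels of the 7 genes and of 0.18 to 0.76 with the summed levels. Both levels share reads with the copy share, the summed levels through the copies' own reads. These correlations are thus partly built in, and nothing is concluded from them.

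**Figure D5:**
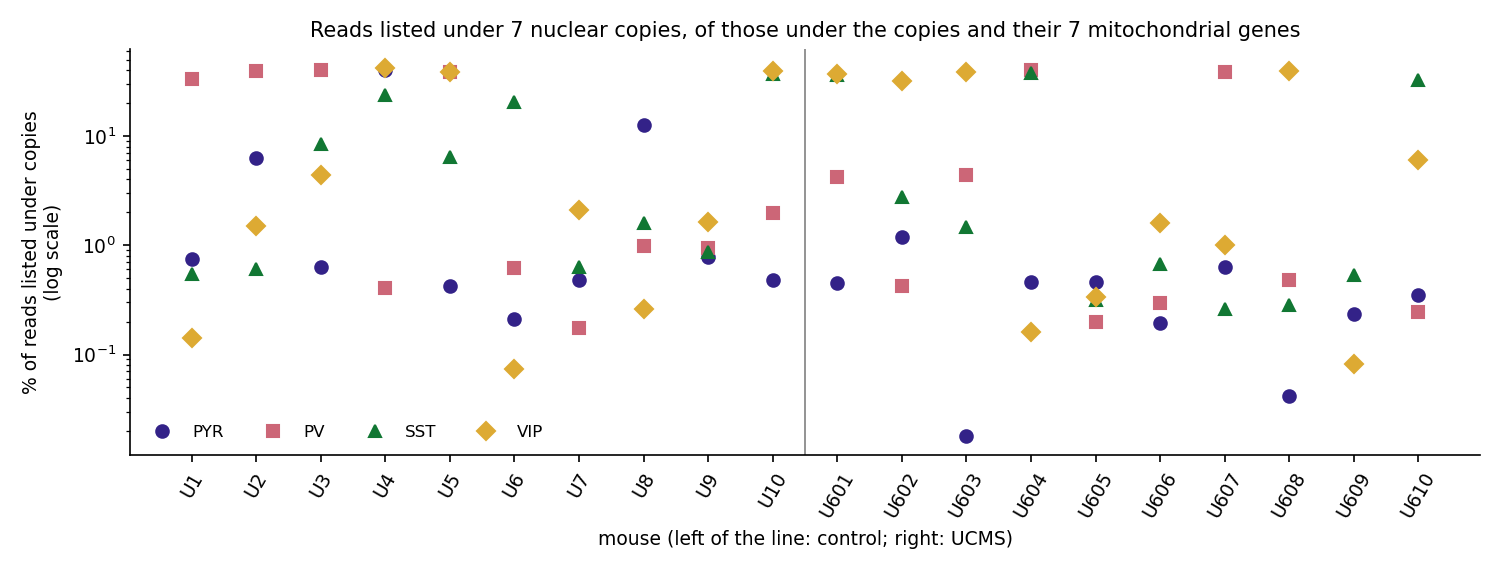
Reads listed under the 7 nuclear copies as a percentage of those under the copies and their 7 mitochondrial partners (log scale), for the libraries of each mouse, control mice on the left and UCMS mice on the right. Each symbol is 1 library; 20 libraries lie at 20% or more and the rest mostly near the median of 0.948%, with libraries of the same mouse often far apart.

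The difference between PV and PYR neurons was also seen outside these 7 genes. The other 6 protein genes (mt-Nd1, mt-Nd2, mt-Nd5, mt-Nd6, mt-Cytb and mt-Atp8) have no such near-identical copy among annotated gene models. mt-Atp8 lies between mt-Co2 and mt-Atp6, and the bases between their copies on chromosome 1 were not searched. In control mice 5 of the 6, all but mt-Atp8, were called higher in PV than in PYR, where 3.74% of all genes were called lower in PYR. In UCMS mice all 6 were, where 4.71% of all genes were called so. The part of copies in this difference was not tested. A more distant copy on chromosome 2 matches mt-Co1, mt-Co2 and mt-Nd2 at 95.91% to 97.61% identity. Gm13340 was listed at 1.58% to 6.39% of the level of mt-Co1, Gm13341 at 4.17% to 24.9% of mt-Co2 and Gm13339 at 0% to 22.3% of mt-Nd2. Other models match mt-Nd5, mt-Nd6 and mt-Cytb at 92.42% to 95.18% identity, and each averaged 3.24 normalized counts or less.

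Genes of the nucleus that act on the mitochondrial genome and its RNA were followed as lists. They were 10 genes of mitochondrial transcription, 10 that maintain mitochondrial DNA, 20 of RNA processing and turnover, 19 of RNA modification and 6 regulators. None of their members passed in any stress comparison. The smallest p belonged to Gtpbp3 in PYR (2.02, adjusted p = 0.634), Nsun2 in PV (0.92, adjusted p = 0.982), Dna2 in SST (2.67, adjusted p = 0.774) and Elac2 in VIP neurons (-2.23, adjusted p = 0.932). Between types Ppargc1a, the coactivator PGC-1alpha that drives mitochondrial gene programmes, stood out. It ranged from 1455 to 3574 normalized counts in control PV (median 2249), from 451.4 to 1185 in SST (median 684.5), from 104.8 to 1621 in VIP (median 458.8) and from 93.8 to 405.7 in PYR libraries (median 241.8). The PYR minus PV difference was -3.32 in control (adjusted p = 4.55e-16) and -3.60 in UCMS mice (adjusted p = 4.35e-09). PV also exceeded SST by 1.62 (adjusted p = 0.000476) and VIP by 2.39 (adjusted p = 8.27e-09) in control mice. The gene was also lower in PYR than in SST neurons, by 1.71 in control (adjusted p = 0.000123, where 2.22% of all genes were called lower in PYR) and by 1.71 in UCMS mice (adjusted p = 0.00254, 3.28%), a pair in which no member passed.

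Of the transcription list, 1 gene was lower in PYR than in PV in control mice, Mterf1a at -2.73 (adjusted p = 0.043), where 3.74% of all genes were called so. Mterf1a was near the floor, with a median of 0 in control PYR and 42.4 in control PV libraries. Its medians were 20.7 in UCMS PYR and 0 in UCMS PV libraries. Mrpl12 was lower in VIP neurons of UCMS mice than in PV (2.25, adjusted p = 0.012, where 4.48% of all genes were called higher in PV) and than in SST (2.12, adjusted p = 0.0317, where 2.01% were called higher in SST). Neither Polrmt, the mitochondrial RNA polymerase, nor Tfam, which packages the DNA and starts transcription, passed in any pair. Polrmt averaged 317.5 ± 153.2 in control PV and 262.1 ± 138.1 in control PYR libraries, and Tfam 197.3 ± 204.5 and 127.4 ± 85.4 (SD, n = 10 each). From the processing list Elac2, which cuts the ends of transfer RNAs, was lower in PV than in VIP in control mice (-2.17, adjusted p = 0.0291, where 3.55% of all genes were called so). Its means were 150.6 in control PV and 474.8 in control VIP libraries, but 187 in UCMS PV and 160.6 in UCMS VIP libraries. Within UCMS mice, Fastkd1 (2.13, adjusted p = 0.0158) and Fastk (1.36, adjusted p = 0.0268) were higher in PV than in VIP, where 4.48% of all genes were called so. Esrra, a nuclear receptor that works with PGC-1alpha, was higher in PV than in VIP in UCMS mice (2.23, adjusted p = 0.0207). The DNA maintenance and RNA modification lists had 0 members called in any pair. Lars2, which charges the mitochondrial leucine transfer RNAs, was lower in stressed PYR neurons (-0.62, adjusted p = 0.00189), where 0.0746% of all genes were called lower. That call was lost under 5 of 13 alternatives: without a filter on low values (adjusted p = 0.398), with a mean of at least 50 (0.0647), with nuclear-read or all-read scaling (0.104 each), and with 8 groups in a joint fit and the mouse as a random block (1). In PV neurons it averaged 2720 ± 384.8 in control (n = 10) and 2588 ± 538.8 in UCMS libraries (SD, n = 9). The test of whether its stress effect differed between types had an adjusted p of 1 in limma.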

How the data were processed

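Total RNA of 79 captured neuron libraries from 20 mice was sequenced from a SMARTer Stranded Total RNA-Seq Pico kit, per the labels' protocols. The submitters' processing notes name HISAT2, SAMtools 1.3, DESeq2 and the GRCm38 build; the sources used here name no counting tool and no strand setting. The authors deposited a table of normalized counts per gene, a signal value in which each library's read counts are divided by 1 factor. Because 1 read is worth a fixed step in a library, whole reads were recovered from the deposited values: to 3 digits, 100% of values lay within 0.001 reads of a whole number, and the largest distance was 0.0018.

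Groups came from the labels. The main test was limma 3.58.1 (R 4.3.3) with a trend and robust variances on log2(normalized count + 4) of genes averaging 10 or more, Benjamini-Hochberg adjusted over all genes tested at 0.05. Stress was tested within each type, on the mean of a mouse's libraries, and as a difference between types; types were compared within an arm with the mouse as a block. Same-numbered libraries came from the same mouse; the median correlation of their deviations was 0.00773, against -0.000989 between mice. edgeR 4.0.16 and DESeq2 1.42.0 on recovered reads, other pseudocounts, filters and scalings, and leaving out libraries or mice were alternatives. All protein and ribosomal RNA members, the listed transfer RNAs and Lars2 are named, and from each list the called genes (up to 6 a comparison) or those with the smallest p; members and lists were chosen with earlier results of these data known. Nuclear copies were searched with BLAST 2.17.0+ among GENCODE M21 transcripts, since no genome was used here, and called near-identical at 99% or more over at least 250 bases. The model was tested on simulated data. Python 3.11.15, pandas 2.3.3, numpy 2.4.6 and matplotlib 3.10.9 were used. Libraries of a group are separate mice.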

Additional observations from a re-analysis of the deposited data

Results flagged for a closer look

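Within groups of 9 or 10 libraries, 160 sets of values were searched for a library far from the rest, and 11 held one; chance alone gives such a gap in about 1 in 20 sets. Mouse U6 had the highest mt-Co1 of the control PV libraries (44881 normalized counts, the next at 38596) and of the control SST libraries (47930, the next at 30930), and the highest mt-Rnr1 of the control SST libraries (372023, the next at 271365). Mouse U605 had the highest mt-Co2 (7208, the next at 5172) and mt-Atp6 (13421, the next at 8936) of the UCMS PYR libraries, and the highest mt-Nd2 (4490, the next at 3176) and mt-Nd4l (3290, the next at 1754) of the UCMS SST libraries. Mouse U2 had the highest mt-Nd5 (16989, the next at 11152) and mt-Tp (262.5, the next at 105.1) of the control VIP libraries. Mouse U604 had the lowest mt-Cytb of the UCMS PYR libraries (5021, the next at 7114). In UCMS PV libraries, mouse U601 had the lowest ratio of protein-gene to ribosomal RNA reads (11.4 per 100, the next at 14.3).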

How the results depend on the processing

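The count of members called between PYR and PV neurons of control mice (11) stayed between 8 and 11 under the alternatives that left out no single mouse, and the 49 calls over the 6 pairs of types in UCMS mice between 41 and 51. Within the latter, PV against VIP (12) became 6 under quantile normalization or all-read scaling and 7 with nuclear-read scaling or copies added. Under the other alternatives of this kind it lay between 10 and 13. The count for PV against SST in control mice (7) became 4 without a filter on low values, 2 under quantile normalization and 4 with libraries scaled to nuclear reads. The count for PV against VIP in control mice (5) became 2 without a filter, 0 under quantile normalization, 1 with nuclear-read scaling, 2 with all-read scaling, 1 with no replicate block, 0 without the 7 libraries with the fewest reads and 3 with the reads of nuclear copies added. The call between PYR and VIP (1) became 0 with a pseudocount of 1, without a filter, with no replicate block, in edgeR and in DESeq2, and 2 under quantile normalization or 3 without the 7 libraries. Between PYR and SST (0) there was 1 call with nuclear-read scaling, with all-read scaling, without the 7 libraries and with copies added, and between SST and VIP (0) 1 call without the 7 libraries. Under stress PYR neurons (0) had 1 call with copies added, and mt-Nd5 in VIP neurons turned from 0.22 to -0.0197 without the 7 libraries. Leaving out 1 mouse gave 7 to 11 for PYR against PV, 3 to 8 for PV against SST, 2 to 6 for PV against VIP, 0 to 1 for PYR against VIP, 0 to 1 for PYR against SST, 0 to 0 for SST against VIP and 45 to 53 in UCMS mice. Leaving out 1 library gave 0 to 1 under stress in PYR and in PV neurons and 0 to 0 in SST and VIP. Leaving out the shallowest libraries and adding copies were chosen after seeing the data; causes were not tested. Of the 3 transfer RNAs, 2 had no read in most libraries, and the part of depth in this was not tested.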
